A study of Arabidopsis thaliana with 29 samples.

Results

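The chloroplast-encoded loci of Arabidopsis thaliana were followed in RNA of whole seedlings. They are the 133 of 59999 loci in the deposited count table whose identifier starts with ATCG, the code for the chloroplast genome. The table gives identifiers only. The RefSeq gene table used here lists 129 chloroplast genes under other locus tags and matched 0 of the 133 identifiers. The loci are therefore not named and were not divided into photosynthesis, ribosomal, RNA polymerase and tRNA loci, a comparison that was not made here. They are described together, and at most 2 identifiers are printed for rises and 2 for falls.

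Seedlings were 7 days old and grew on medium with sucrose, with the light on for 16 h and off for 8 h a day, in all 3 groups. The light was 100 umol per m2 per s in each group. WT had 3 libraries. The second group is 2x35S::GFP-HY5/hy5, a hy5 mutant in which HY5, a transcription factor of light responses, is fused to green fluorescent protein and driven by a doubled 35S promoter, which is active in most cells. The third, fusca, is the same genotype in seedlings recorded with the fusca phenotype, a name for dark-pigmented seedlings, with 3 libraries. For GFP-HY5 the deposited columns, 3 in number, do not differ in any of the 60004 rows and count as 1 library. The labels do not say whether replicates were separate cultures, so p-values measure only the spread between these libraries.

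The chloroplast genome of land plants codes for subunits of the photosystems, the cytochrome b6f complex, the ATP synthase and the NADH dehydrogenase-like complex, for the large subunit of Rubisco, and for ribosomal proteins, rRNAs and tRNAs. It is transcribed by a bacterial-type RNA polymerase, whose core it codes itself and which needs sigma factors from the nucleus, and by phage-type polymerases from the nucleus. Most mature chloroplast RNAs carry no poly(A) tail, and in this organelle such tails mark RNA for decay. The libraries were made from polyadenylated RNA, so the counts describe the chloroplast reads that came through that selection. Whether they follow the amount of whole chloroplast RNA was not tested.

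Library totals over loci were 11860094 to 12545563 counts. Reads on no feature made up 48.4% to 48.9% of each column, and whether the libraries kept the strand of the RNA is not given in the sources used here, so sense and antisense reads of a locus may not be separable. Fusca replicate 2 stood apart from the other fusca libraries, and its values are given by themselves. Levels are given as CPM, the read count relative to the TMM-scaled size of the library. The summed level of 5 seed storage genes was 145 CPM in fusca replicate 2, against 1.08 and 1.00 in the other fusca libraries and 1.08 to 3.88 in WT. Over 6 root hair and root epidermis genes WT libraries summed to 174 to 232 CPM, GFP-HY5 to 121 and fusca replicates 1, 2 and 3 to 99.0, 71.4 and 88.2. By the test described below 5 of the 6 were lower in fusca, where 18.4% of all loci were. The remaining gene did not pass, with means of 27.9 CPM in WT and 30.2 in fusca. The part of these marker differences in the chloroplast values was not tested, and fewer cells of a type cannot be told apart from less RNA per cell.

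The share of counts in chloroplast loci overlapped between WT and fusca. The share was 2.40%, 2.38% and 2.78% in WT replicates 1, 2 and 3, 1.96% in GFP-HY5 (95% interval by Wilson 1.96 to 1.97%, counting error only), and 2.63%, 3.70% and 2.19% in fusca replicates 1, 2 and 3. The WT and fusca ranges overlapped, with fusca replicate 2 the highest of the 7 libraries and GFP-HY5 the lowest. The means were 2.52 ± 0.226% in WT and 2.84 ± 0.777% in fusca (SD, n = 3 each), which did not differ beyond the spread (two-sided exact permutation test, p = 0.7, where the smallest possible p is 0.1). Without fusca replicate 2 the fusca mean was 2.41%, below that of WT. On TMM-scaled library sizes the direction also turned, with a summed chloroplast level of 29020 ± 3575 CPM in WT, 21560 in GFP-HY5 and 24280 ± 8242 in fusca (SD, n = 3 each for WT and fusca, exact permutation p = 0.5).

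What differed was which chloroplast loci made up that share. The loci later called higher in fusca held 2.21% to 2.44% of the chloroplast counts in WT and 2.50% in GFP-HY5, but 19.0%, 31.5% and 22.9% in fusca replicates 1, 2 and 3. Those called lower held 45.4%, 42.3% and 44.8% in WT replicates 1, 2 and 3, with 42.9% in GFP-HY5, and 9.74%, 13.9% and 14.0% in fusca replicates 1, 2 and 3. These loci were chosen by the same comparison, so the shares describe it and do not support it. The 10 most abundant loci held 66.8% to 68.8% of the chloroplast counts in WT libraries, 65.8% in GFP-HY5, and 56.5%, 50.8% and 54.7% in fusca replicates 1, 2 and 3. The most abundant single locus, the same in every library, in contrast held 14.1%, 15.4% and 15.7% of them in WT replicates 1, 2 and 3, 15.1% in GFP-HY5, and 21.7%, 17.3% and 19.8% in fusca replicates 1, 2 and 3, with no overlap of the groups (two-sided exact permutation test, p = 0.1, the smallest possible). Its own level overlapped between WT and fusca, with means of 4394 and 4674 CPM. By the test described below it did not differ (log2 fold change 0.09, adjusted p = 0.82, edgeR).

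**Figure D1:**
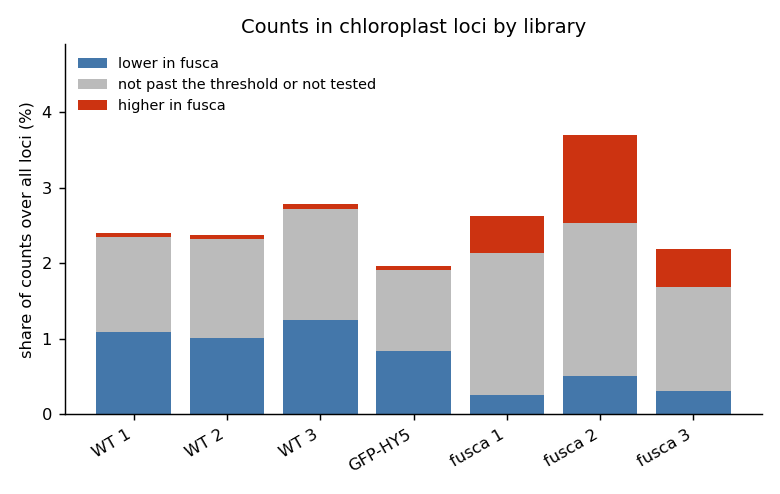
Share of each library's counts in chloroplast loci (percent of counts over all loci), divided by the call in fusca against WT. Bar heights run from 1.96% in GFP-HY5 to 3.70% in fusca 2, while the loci called higher are a thin band in WT and GFP-HY5 and a broad one in fusca.

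Of the 133 loci, 116 had counts enough to be tested in fusca against WT. The other 17 had at most 38 counts in any library. The comparison asks which transcripts differ in seedlings that show the phenotype. Counts were scaled with TMM factors, which set a common level over all loci, and tested with edgeR's quasi-likelihood test across 21820 loci, with Benjamini-Hochberg adjustment over all of them and a threshold of 0.05. In the following, rose and fell refer to this test.

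Chloroplast loci went both ways in fusca: 18 rose, 37 fell and 61 did not pass the threshold. The loci that rose are 15.5% of those tested, where 16.7% of all loci were called higher, and the share is near this background. The loci that fell are 31.9%, where 18.4% of all loci were called lower. The changes were large. At least 4-fold changes past the threshold were found at 8 loci upward and 17 downward, 21.6% of the chloroplast loci against 7.93% of all loci. At least 8-fold changes were found at 6 upward and 9 downward, 12.9% against 4.26%. Without fusca replicate 2 the 4-fold counts were 7 upward and 28 downward, 30.2% against 8.74% of all loci, and the 8-fold counts 2 and 17, 16.4% against 4.64%. The median log2 fold change of the chloroplast loci was -0.35, with quartiles of -1.40 and 0.59, and that of all tested loci was 0.05, with quartiles of -0.37 and 0.43. The WT and fusca libraries did not overlap at 63 of the 116 loci, a share near the 49.8% found for all loci. Of the 116 loci, 19 (16.4%) lay higher and 44 (37.9%) lower in fusca without overlap. The shares of all loci by direction are not given here.

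**Figure D2:**
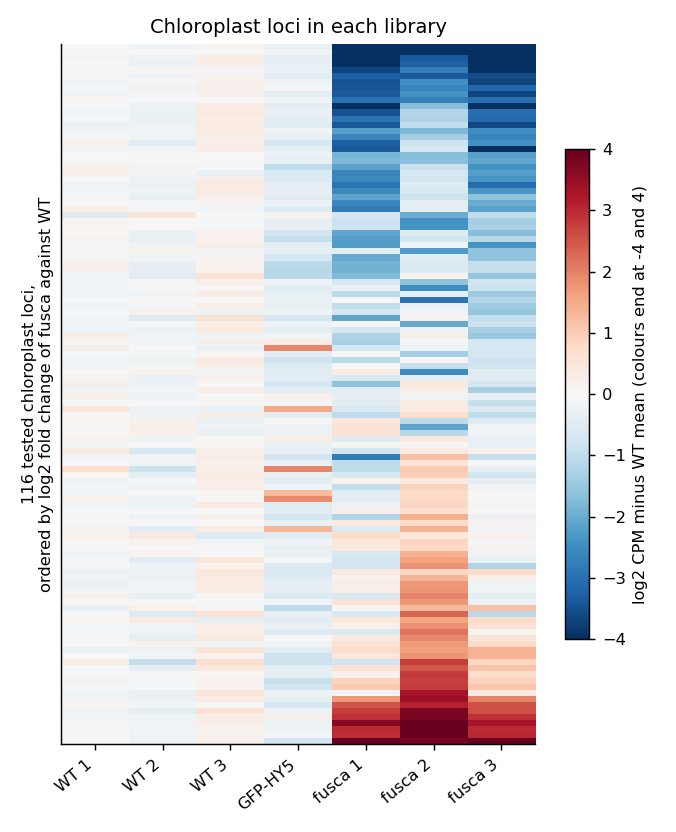
Difference of each library from the WT mean (log2 CPM, colour) at the 116 tested chloroplast loci, 1 row a locus, ordered by the log2 fold change of fusca against WT from -5.04 at the top to 4.12 at the bottom. WT and GFP-HY5 are pale at nearly all loci. The fusca libraries share the blue and red ends, and fusca 2 is redder than fusca 1 and 3 in the lower part.

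The split between rises and falls depended on the scale. The WT libraries had TMM factors of 0.839 to 0.889, the fusca libraries of 1.11 to 1.26. With the library size as the only scale the median of all loci shifted by 0.45, 31 chloroplast loci rose (46.6% of all loci did) and 28 fell (11.9% of all loci), and their median was 0.09. With upper-quartile factors the shift was 0.15, and 23 rose (24.4% of all loci) and 34 fell (15.6%). Scaled to the chloroplast total of each library, so that a change is relative to the other chloroplast RNAs, 28 rose and 29 fell of 118 tested, and 44 of the 55 calls under TMM were kept in the same direction. The number that fell also rested on single libraries. It was 58 without fusca replicate 2 (25% of all loci fell), 23 without fusca replicate 3 (16.9%) and 23 without WT replicate 3 (13.8%).

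The largest rise past the threshold was at ATCG00040. Its level was 18.0, 14.8 and 20.1 CPM in WT replicates 1, 2 and 3, 10.2 in GFP-HY5, and 373, 245 and 299 in fusca replicates 1, 2 and 3. All fusca libraries lay far above all others, and fusca replicate 2 was the lowest of them. The log2 fold change was 4.12 ± 0.22 (SE; adjusted p = 1.3e-06, edgeR). It was 4.25 without fusca replicate 2 and 4.51 relative to the chloroplast total.

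ATCG01190 had the next largest rise. It stood at 83.5, 78.2 and 97.5 CPM in WT replicates 1, 2 and 3, 83.3 in GFP-HY5, and 664, 2590 and 690 in fusca replicates 1, 2 and 3. The groups did not overlap, and fusca replicate 2 was well above the other fusca libraries. The log2 fold change was 3.93 ± 0.53 (SE; adjusted p = 3.5e-04, edgeR). Without fusca replicate 2 it was 2.97. This locus has a partner among the chloroplast loci with nearly the same count in every library, so its level is uncertain.

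The largest fall was at ATCG00420, from 156, 139 and 166 CPM in WT replicates 1, 2 and 3 and 124 in GFP-HY5 to 4.31, 5.08 and 4.61 in fusca replicates 1, 2 and 3. The fusca libraries were close to each other here, replicate 2 included. The log2 fold change was -5.04 ± 0.17 (SE; adjusted p = 3.4e-07, edgeR). ATCG00280 was at 320, 302 and 294 CPM in WT replicates 1, 2 and 3, at 275 in GFP-HY5 and at 16.0, 7.62 and 11.4 in fusca replicates 1, 2 and 3, with replicate 2 the lowest. Here the log2 fold change was -4.70 ± 0.27 (SE; adjusted p = 1.8e-06, edgeR). Both falls stayed past the threshold without fusca replicate 2, at -5.10 and -4.48.

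**Figure D3:**
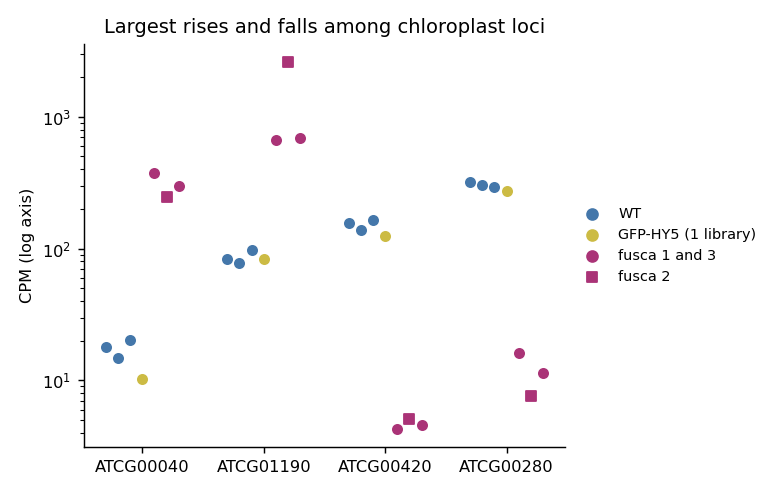
Level (CPM, log axis) of the chloroplast loci with the largest rises and falls in fusca against WT, 1 point a library. Fusca points lie between 245 and 373 at ATCG00040 and between 4.31 and 5.08 at ATCG00420, and the square of fusca 2 lies at 2590 at ATCG01190.

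Of the 10 loci with the highest mean CPM over the libraries, 0 rose and 5 fell (50%) by the edgeR test. Of the next 30, with means of 77.2 to 744 CPM, 6 rose (20%) and 12 fell (40%). Of the remaining 76, 12 rose (15.8%) and 20 fell (26.3%). Of all tested loci 16.7% rose and 18.4% fell. The mean CPM includes the fusca libraries, so that a large change itself moves a locus between these levels. In the order of their identifiers, neighbouring loci had log2 fold changes in the same direction at 69 of 115 pairs, with Pearson r = 0.361 across pairs of neighbours. These pairs share libraries and loci. How many pairs would share a direction with the loci in random order was not computed. The count and r are given as a description. The longest run of neighbours that fell was 5 loci and the longest that rose was 4.

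Some loci had nearly equal counts in every library. Among 96 loci with a mean of at least 50 counts, 13 pairs had counts that differed by no more than counting error in all 7 libraries (chi-square with a p above 0.01), and 7 of these pairs had a mean over 500 counts. They involve 25 loci, which held 11.1% to 27.3% of the chloroplast counts, and 1 of these loci is in more than 1 pair. At low counts, as in the pair with a mean of 54.4, loci can differ and still pass as equal. Near-equal counts by themselves therefore do not show that the loci of a pair have the same sequence. The RefSeq table lists 5 protein-coding chloroplast genes at 2 places with the same length, as in the inverted repeat of this genome. In most pairs the identifiers are mirrored, so that as that of 1 locus goes up, that of its partner goes down. The copies of an inverted repeat have such an order, but whether the pairs are such copies was not tested. The 18 rises and 37 falls count both loci of a pair. How reads with more than 1 place were assigned is not given in the sources used here. With each pair counted once, an alternative chosen after seeing the data, 14 loci rose and 31 fell. In the main fit 16.7% of all loci rose and 18.4% fell.

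At most chloroplast loci, fusca replicate 2 stood apart within its group. It was at least 2-fold higher than their mean at 63 of the 116 loci, where 3.7% of all loci were, and at least 2-fold lower at 12, where 5.4% of all loci were. In the same measure fusca replicate 1 was higher at 11 (1.43% of all loci) and lower at 37 (1.27%), and fusca replicate 3 higher at 0 (1.41%) and lower at 15 (0.981%). Each of the last 4 counts includes replicate 2 in the mean it is set against. Among WT libraries, replicate 2 was at least 2-fold apart from the others at 2 chloroplast loci (0.88% of all loci), and replicates 1 and 3 at 0 (0.995% and 1.26%). The largest differences of fusca replicate 2 were 3.18 upward and -2.44 downward on the log2 scale.

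Replicate 2 was the highest fusca library whatever the call, at 17 of the 18 loci that rose, 30 of the 37 that fell and 51 of the 61 that did not pass. At the loci that fell it thus mostly lay nearer to WT, and at those that rose mostly farther from WT. Without it 17 loci rose (24.3% of all loci were called higher) and 58 fell (25% were called lower), and the median log2 fold change of the chloroplast loci was -0.68. Of the 55 calls with all libraries, 53 were kept in the same direction, and 22 loci, all lower in fusca, were called only without replicate 2. The sign of the log2 fold change turned at 18 loci, of which 0 had been past the threshold. Replicate 2 also had the highest mitochondrial share, 0.256% of counts against 0.124% and 0.134% in fusca replicates 1 and 3 and 0.0524% to 0.0606% in WT.

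**Figure D4:**
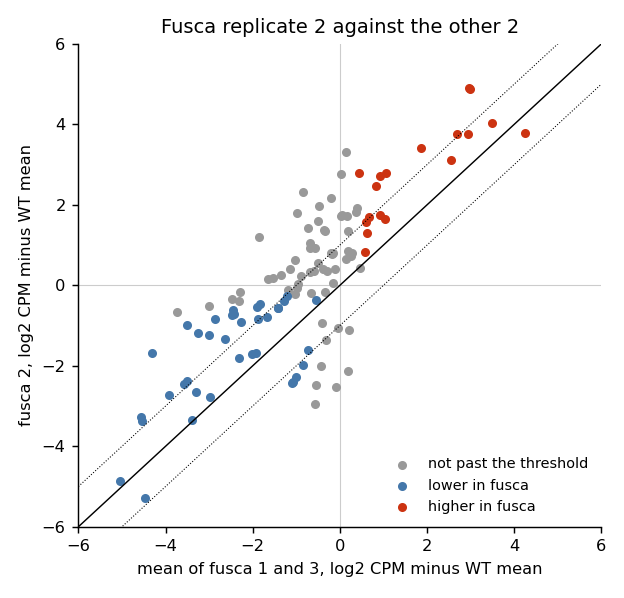
Fusca replicate 2 against the mean of fusca replicates 1 and 3 at the 116 tested chloroplast loci, both as log2 CPM minus the WT mean. The solid line marks equality and the dotted lines a 2-fold difference. Of the points, 63 lie at least 2-fold above the line and 12 at least 2-fold below it, and the axes differ in sign at many grey points near 0.

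The GFP-HY5 library, from seedlings of the transgenic line with no fusca phenotype in the labels, was compared with WT as 1 library, without a test. It lay below the WT mean at 104 of the 116 loci, where 48.3% of all loci did, and below every WT library at 84, where 28.8% of all loci did, with a median log2 difference of -0.35, where the median of all loci was 0.01. At the same loci the median log2 fold change of fusca against WT was also -0.35. Above every WT library were 8 chloroplast loci, and 58.3% of all loci lay outside the WT range in either direction. At least 2-fold differences were few: 6 chloroplast loci were higher, where 2.05% of all loci were, and 5 were lower, where 1.02% of all loci were. Relative to the chloroplast total the picture differed. The library then lay above WT at 76 loci and below at 40, with a median of 0.07, and 6 loci were at least 2-fold higher and 0 lower. The lower count was 2 with the library size as the only scale and 3 without WT replicate 1.

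The 6 loci that were at least 2-fold higher in GFP-HY5 had 74 to 363 counts there and at most 151 in any WT library. Their summed level was 29.9, 19.6 and 28.0 CPM in WT replicates 1, 2 and 3, 76.7 in GFP-HY5, and 16.5, 53.0 and 22.0 in fusca replicates 1, 2 and 3. The GFP-HY5 library was thus above all fusca libraries as well, with fusca replicate 2 the next. None of the 6 passed the edgeR threshold in fusca against WT (35.1% of all loci passed it), with log2 fold changes of -0.57 to 0.44. Both comparisons use the same WT libraries. The 5 loci at least 2-fold lower in GFP-HY5 summed to 2480, 1748 and 2414 CPM in WT replicates 1, 2 and 3, to 1023 in GFP-HY5 and to 592, 1485 and 1154 in fusca replicates 1, 2 and 3. All fusca libraries were below WT in this sum, on both sides of GFP-HY5. The sum is nearly all from 2 loci that form a near-equal pair (2470 of it in WT replicate 1), while the other 3 add 4.94 to 18.1 CPM in each library. In fusca 3 of the 5 loci fell, that pair among them, and 1 rose, by 0.95 in log2 (adjusted p = 0.048, edgeR). Of all loci 18.4% fell and 16.7% rose.

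Nuclear genes whose products act with the chloroplast genome gave the other side of the comparison. Nucleus-encoded subunits of the complexes that the chloroplast codes in part fell together in fusca: 25 of 25 tested passed the threshold downward, where 18.4% of all loci did. Their median log2 fold change was -4.56, with a range of -8.22 to -3.43. The chloroplast loci spread from -5.04 to 4.12, and 61 of them did not pass. RBCS2B, a gene for the small subunit of Rubisco, stood at 8360 to 10008 CPM in WT, 6711 in GFP-HY5 and 14.4, 45.3 and 31.0 in fusca replicates 1, 2 and 3, which is -8.22 in log2 (adjusted p = 2.6e-06, edgeR). RBCS3B, another small subunit gene, changed by -7.16 (edgeR adjusted p = 1.6e-06). The division of reads among these near-identical copies is uncertain. PSBQ-2, a subunit of the oxygen-evolving complex of photosystem II, was at 819 to 1050 CPM in WT and 10.2, 15.5 and 10.6 in fusca replicates 1, 2 and 3, or -6.22 in log2 (adjusted p = 5.2e-07, edgeR). The largest nuclear falls were thus larger than the largest fall of a chloroplast locus, a comparison of estimates without a test. The libraries were made from polyadenylated RNA, and most mature chloroplast RNAs carry no poly(A) tail. Nuclear and chloroplast estimates may therefore not measure the same thing.

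Nucleus-encoded proteins of the plastid ribosome fell less far, with 16 of 16 past the threshold (18.4% of all loci fell) and a median of -1.92. PRPS20 was at 312 to 364 CPM in WT and at 51.8, 89.6 and 52.3 in fusca replicates 1, 2 and 3, which is -2.36 in log2 (adjusted p = 4.9e-05, edgeR). RPL21C changed by -2.10 (edgeR adjusted p = 6.1e-05). At both genes fusca replicate 2 lay nearer to WT than the other fusca libraries.

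The nuclear genes of plastid transcription were mostly lower. Of 21, 14 fell (66.7%, against 18.4% of all loci), 1 rose (4.76%, against 16.7% of all loci) and 6 did not pass. The median log2 fold change was -1.04. Among the sigma factors, SIG4 fell most, from 49.4, 50.6 and 56.0 CPM in WT replicates 1, 2 and 3 and 53.7 in GFP-HY5 to 4.18, 8.05 and 3.81 in fusca replicates 1, 2 and 3. This is a log2 fold change of -3.28 ± 0.26 (SE; adjusted p = 1.4e-05, edgeR). SIGA changed by -2.27 (edgeR adjusted p = 5.2e-06) and SIG2 by -2.15 (edgeR adjusted p = 1.4e-05). SIGE did not pass the threshold, with 5.23 to 6.15 CPM in WT, 11.7, 7.91 and 6.28 in fusca replicates 1, 2 and 3 and a difference of 0.60 in log2 (adjusted p = 0.094, edgeR). Without fusca replicate 2 it was 0.66 with an edgeR adjusted p of 0.039. SCA3, a phage-type RNA polymerase of the plastid, was at 41.2 to 58.0 CPM in WT and 47.1, 34.6 and 48.5 in fusca replicates 1, 2 and 3, a difference of -0.21 in log2 (adjusted p = 0.42, edgeR). The 1 member that rose was AT5G15700, by 0.75 (edgeR adjusted p = 0.019). Its call was lost in fits without WT replicate 1, WT replicate 3, fusca replicate 1 or fusca replicate 3, with values of 0.77, 0.71, 0.69 and 0.59.

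Of 5 nuclear genes of plastid RNA turnover and stability, 4 fell (80%, against 18.4% of all loci). CSP41A and CRB code for proteins that bind stem-loops of chloroplast RNA. CSP41A went from 657 to 827 CPM in WT to 19.7, 40.5 and 24.0 in fusca replicates 1, 2 and 3, which is -4.67 in log2 (adjusted p = 3.8e-06, edgeR), and CRB changed by -4.28 (edgeR adjusted p = 7.4e-06). RIF10, the plastid polynucleotide phosphorylase, which trims chloroplast RNA from its 3′ end and can add tails to it, fell from 128 ± 12.3 CPM in WT to 37.8 ± 4.70 in fusca (SD, n = 3 each), with 38.2, 32.9 and 42.3 in fusca replicates 1, 2 and 3, or -1.76 in log2 (adjusted p = 2.2e-05, edgeR). In the GFP-HY5 library the medians of the lists, in log2 against WT, were -0.16 for the photosynthesis subunits, -0.12 for the ribosomal proteins, 0.08 for transcription and 0.00 for RNA turnover, and 0 genes of these lists were at least 2-fold from WT.

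**Figure D5:**
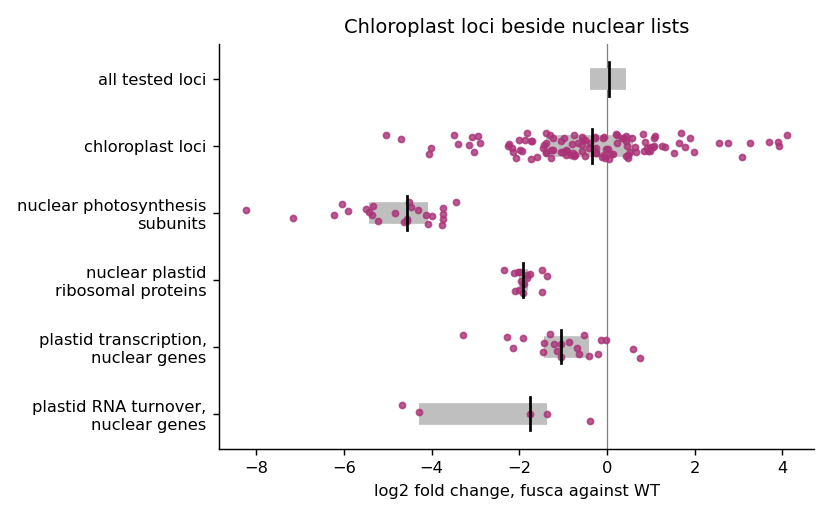
Log2 fold change of fusca against WT for all tested loci, the chloroplast loci and 4 lists of nuclear genes. Points are single loci (not drawn for all tested loci), grey bars run from the first to the third quartile and black lines mark medians. The photosynthesis subunits sit around -4.56 and the ribosomal proteins around -1.92, while the chloroplast loci spread to both sides of 0.

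As the other organelle genome, the mitochondrial loci differed in pattern. Of the 146 mitochondrial loci, 36 were tested. By the edgeR test 11 of them rose, 30.6% against 16.7% of all loci, and 0 fell, where 18.4% of all loci did. Their median log2 fold change was 1.04. The mitochondrial loci, untested ones included, held 0.0564 ± 0.00407% of the counts in WT against 0.171 ± 0.0737% in fusca (SD, n = 3 each). This share was higher in 3 of 3 fusca libraries than in any WT library (two-sided exact permutation test, p = 0.1, the smallest possible). The difference between the chloroplast and mitochondrial loci was not tested.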

How the data were processed

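RNA from 9 seedling samples was measured. Read counts per locus, not normalized, are in 1 table that the authors deposited and named as sense counts. The submitters' processing notes name Trim Galore, STAR, deepTools, HTSeq and TAIR10, without versions or roles. The 5 rows that name no locus (reads on no feature, 48.4% to 48.9%; ambiguous reads, 0.572% to 0.798%) were left out of the library sizes and of every test. The 20 ChIP-seq samples were not analysed here.

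Loci were kept by filterByExpr on WT and fusca, scaled with TMM and tested with edgeR 4.0.16 in R 4.3.3 on 7 libraries. The standard error is the log2 fold change divided by the root of the F statistic. GFP-HY5 differences are log2 CPM with a prior count of 2. The fit was tested on simulated data.

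The members, the nuclear lists and their tests were chosen with earlier results of these data known. The naming rule set out classes of chloroplast genes. With identifiers unmatched, it was reduced to the 2 largest rises and 2 largest falls past the threshold, and up to 3 each way for each nuclear list. A gene that the rule names is not reported here. SIGE and SCA3 fall outside it and were added after their values were seen. Same-numbered WT and fusca libraries showed no positive correlation of deviations, which does not settle whether they were handled together.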

Additional observations from a re-analysis of the deposited data

How the results depend on the processing

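The class medians and class shares, and the alternative that leaves out inverted-repeat genes, were not run, since the identifiers could not be matched to genes. Run instead were scaling by RLE or upper-quartile factors, by library size only or by nuclear genes, other count filters, only the compared groups, a replicate block, each replicate left out, DESeq2 1.42.0, scaling to the chloroplast total, a prior count of 0.5, and other bases of the chloroplast share.

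With library size only, 31 chloroplast loci rose, the median turned to 0.087, 2 transcription genes rose and 2 chloroplast loci were at least 2-fold lower in GFP-HY5. On that scale 46.6% of all loci rose. With upper-quartile factors 2 transcription genes rose, where 24.4% of all loci did. Scaled to the chloroplast total, 28 chloroplast loci rose and 0 were at least 2-fold lower in GFP-HY5. Why these values move was not tested beyond the shift in scale. With 1 replicate left out, the chloroplast loci that rose numbered 13 to 23 and those that fell 23 to 58, the median was -0.68 to -0.27, the transcription genes that rose 0 to 2, and the loci lower in GFP-HY5 3 to 6. Of all loci 24.3% rose and 25% fell without fusca replicate 2. Without fusca replicate 3 16.9% fell, and without WT replicate 3 13.8% fell. For the other fits with 1 replicate left out these shares are not given here. The fusca minus WT difference in the chloroplast share was 0.32 percentage points, and -0.11 to 0.64 with 1 replicate left out, negative without fusca replicate 2. The photosynthesis and ribosome lists gave 25 and 16 falls under each alternative run.

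Same-numbered WT and fusca libraries had correlations of deviations of -0.045, -0.12 and -0.20 over 21820 loci. Those with different numbers had -0.053 to 0.149. These values cannot show whether same-numbered samples were grown or handled together. With the replicate block 17 chloroplast loci rose and 40 fell. The share of all loci called in that fit is not given here. For the named loci, 255 values kept direction and call, and 4, all of AT5G15700 with 1 replicate left out, lost the call. Low counts limit the 17 untested loci.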
